A study of Mus musculus with 155 samples.

Results

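The genes of the mitochondrial respiratory chain and ATP synthase were followed across 5 populations of sorted mouse brain cells. Members were all gene symbols of the table that begin with mt-, Nduf, Uqcr, Cox4 to Cox8 or Atp5, or that name a subunit of succinate dehydrogenase (Sdha to Sdhd). This gave 57 of the 3422 genes in the table, 7 encoded by the mitochondrial genome and 50 by nuclear chromosomes. The 57 held 3 mitochondrially encoded and 27 nuclear genes of complex I, of which 3 are assembly factors, 2 nuclear genes of complex II, 1 mitochondrial and 2 nuclear genes of complex III, 2 mitochondrial and 7 nuclear genes of complex IV, and 1 mitochondrial and 12 nuclear genes of ATP synthase, complex V.

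Messenger RNA was measured in single cells by SMART-Seq2, which copies whole transcripts. The cells had been dissociated from the subventricular zone, where neuroblasts are born, together with the overlying corpus callosum, a white matter tract, and the mice were 8 to 10 weeks old. OligNBL (40 cells) were positive for both Gad67-GFP and Olig2-Tomato and came from lesioned mice of the cross between strains CB6-Tg(Gad1-EGFP)G42Zjh/J and Olig2-tdTomato TH39Gsat/Mmcd. NBL (27 cells) were Gad67-GFP cells of lesioned CB6-Tg(Gad1-EGFP)G42Zjh/J mice, OL (22 cells) Olig2-Tomato cells of lesioned Olig2-tdTomato TH39Gsat/Mmcd mice, O (29 cells) Olig2-Tomato cells of healthy mice of that strain, and NB (37 cells) Gad67-GFP cells of healthy CB6-Tg(Gad1-EGFP)G42Zjh/J mice. Lesioned mice had been demyelinated with LPC, lysophosphatidylcholine, 6 days before. Each condition had 5 mice, but the labels tie no cell to a mouse, so each population counts as 1 sample, and values are described without a test. Strain and gate cannot be told apart wherever the gates differ. Cell numbers run in stretches that each hold a single population, so their order and the population cannot be told apart either. The titles of OligNBL cells carry the mark cont although their lesion label reads lesion; the lesion label was used.

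Complexes I and II take electrons from NADH and succinate, complex III passes them to cytochrome c, and complex IV hands them to oxygen. Complexes I, III and IV pump protons as they do so, and ATP synthase uses the returning protons to make ATP. A few core subunits are encoded in mitochondrial DNA and transcribed there as long precursors, while the other subunits come from nuclear genes and are imported, so a working complex needs both genomes. Neural progenitors are known to lean on glycolysis and to take up more oxidative phosphorylation as they become neurons, whereas mature myelinating oligodendrocytes of mice are known to survive a loss of complex IV.

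The deposited values were normalized so that every cell had nearly the same distribution, and they carry a gene's rank in its cell rather than its depth. A gene's level is the mean over cells of log2(value + 1). Presence is the percentage of cells that rank the gene within their top 500, given with exact 95% binomial intervals that cover counting error only; 2 NB cells with fewer than 500 detected genes were left out of it. A gene was counted as detected in a cell where its value lay above that cell's lowest value. A gene detected in no cell of a population allows a share of up to 8.81% in OligNBL, 12.8% in NBL, 15.4% in OL, 11.9% in O and 9.49% in NB. The median number of genes detected per cell was 1397 in OligNBL, 1161 in NBL, 950.5 in OL, 1187 in O and 1114 in NB. To show the spread within a population, its cells were also put in the order of their cell numbers and cut into blocks of up to 8, 21 blocks in all; the first blocks of OligNBL, O and NB join their cells numbered 21 or lower with the next cells of the population, whose numbers can lie far off. A difference of levels of at least 1 is called higher or lower below, and each call is set against the share of all 3422 genes that passed the same limit.

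The labelled cell types were read against marker lists. Of 11 measured mature oligodendrocyte genes, 10 were among the 500 highest in at least 20% of OL cells and 10 of O cells, against 0 in OligNBL, 0 in NBL and 0 in NB, and Mog, Mal and Opalin were listed at 0 in every OligNBL cell. The mean level of these 11 genes in a cell ran from 0 to 0.82 in OligNBL, 0 to 1.23 in NBL, 2.74 to 13.001 in OL, 5.26 to 9.74 in O and 0 to 1.02 in NB. The myelin gene Mbp was present in 100% of OL cells, 24.1% of O cells and in no OligNBL, NBL or NB cell. Cnp was present in 86.4% of OL and 96.6% of O cells, and Trf in 100% of both. Of 15 measured neuroblast genes, the same limit was passed by 9 in OligNBL, 8 in NBL, 2 in OL, 1 in O and 6 in NB. Of the oligodendrocyte progenitor genes 6 were measured, and 4 passed in OligNBL, 2 in NBL, 1 in OL, 1 in O and 0 in NB. Pecam1, the 1 measured endothelial marker, had a median of 7.68 in OligNBL, 8.23 in NBL, 7.73 in OL, 10.5 in O and 5.52 in NB on the log2 scale, and Snap25, the 1 measured marker of mature neurons, had medians of 0.66, 0.00, 0.00, 5.89 and 0.00 in the same order. No gene of the astrocyte, microglia, mural and ependymal lists was among the genes analysed. The populations compared below also differ in these markers to varying degrees, and the markers' part in the differences was not tested.

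Respiratory chain transcripts were seen at about the same rate as other genes. The median member was detected in 32.9% of all cells, against 29.7% for the median of all genes, and 9 of the 57 members were detected in at least 50% of cells, as were 615 of the 3422 genes. The member with the highest level over all cells was mt-Co1, above 97.0% of all genes, and the lowest was Ndufb6, above 6.40%.

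The mitochondrially encoded genes did not follow a single order of populations. Among the 7, mt-Nd1, mt-Nd4, mt-Nd5 and mt-Co1 had their highest level in O, mt-Cytb in OL, mt-Co3 in OligNBL and mt-Atp6 in NB. All lie on the same strand of the mitochondrial chromosome (GRCm38, GENCODE vM21), and nuclear copies of mitochondrial sequence could take or give reads, so single genes are uncertain to that extent.

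The catalytic core subunit of complex IV, mt-Co1 (mitochondrial chromosome, 5328 to 6872), was the gene of this set seen in most cells. Its log2 values had a median of 3.40 and a highest of 16.9 in OligNBL, 5.31 and 16.2 in NBL, 0.00 and 13.7 in OL, 10.0 and 17.8 in O, and 2.06 and 11.8 in NB; the lowest cell was at 1.91 in O and at 0 in the other populations. It was detected in 35 of 40 OligNBL, 22 of 27 NBL, 8 of 22 OL, 29 of 29 O and 19 of 37 NB cells. O thus stood highest, and no O cell lacked it, while most OL cells did. Levels were 4.76 in OligNBL, 5.19 in NBL, 2.24 in OL, 8.86 in O and 1.93 in NB. Block means ran from 1.89 to 9.45 in OligNBL, 1.83 to 7.18 in NBL, 0.24 to 5.87 in OL, 5.81 to 11.5 in O and 0.53 to 3.10 in NB, so the O blocks lay apart from those of NB and overlapped the others. Presence was 47.5% in OligNBL (interval 31.5 to 63.9), 70.4% in NBL (49.8 to 86.2), 22.7% in OL (7.82 to 45.4), 86.2% in O (68.3 to 96.1) and 14.3% in NB (4.81 to 30.3).

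The other mitochondrial subunit of complex IV, mt-Co3 (8607 to 9390), followed another order. Its levels were 3.16 in OligNBL, 0.11 in NBL, 2.29 in OL, 0.57 in O and 0.44 in NB. It was detected in 28 of 40 OligNBL, 5 of 27 NBL, 12 of 22 OL, 8 of 29 O and 13 of 37 NB cells, and its highest log2 value was 17.8 in OligNBL but 1.12 in NBL. Both subunits were detected in the same cell in 24 of 40 OligNBL, 5 of 27 NBL, 4 of 22 OL, 8 of 29 O and 9 of 37 NB cells. In NBL mt-Co1 was therefore high in cells where mt-Co3 was mostly listed at 0. The proton channel subunit of ATP synthase, mt-Atp6 (7927 to 8607), lies directly before mt-Co3. Its levels were 0.37 in OligNBL, 1.31 in NBL, 0.87 in OL, 0.24 in O and 1.56 in NB, and it was detected with mt-Co3 in 19 of 40 OligNBL, 2 of 27 NBL, 4 of 22 OL, 3 of 29 O and 12 of 37 NB cells.

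The mitochondrial set held 3 membrane subunits of complex I. For mt-Nd4 (10167 to 11544) levels were 0.18 in OligNBL, 0.36 in NBL, 2.37 in OL, 2.81 in O and 0.24 in NB. For mt-Nd5 (11742 to 13565) they were 0.20, 0.27, 0.55, 2.92 and 0.17 in the same order, and for mt-Nd1 (2751 to 3707) 0.96, 0.51, 1.01, 2.23 and 1.40. All 3 were detected together in 12 of 29 O cells, 1 of 37 NB cells and in no OligNBL, NBL or OL cell. For mt-Nd1, the cells numbered 21 or lower lay far above the levels of their populations. They averaged 7.68 in OligNBL (4 cells), 7.90 in O (2 cells) and 7.20 in NB (6 cells). The electron carrier of complex III, mt-Cytb (14145 to 15288), was detected in 25 of 40 OligNBL, 4 of 27 NBL, 13 of 22 OL, 9 of 29 O and 8 of 37 NB cells. Its levels were 2.19 in OligNBL, 0.50 in NBL, 4.03 in OL, 1.03 in O and 0.76 in NB, with OL block means from 0.56 to 8.34. The cells numbered 21 or lower averaged 4.98 in OligNBL, 9.27 in O and 2.93 in NB for mt-Cytb. The mt-Nd1 and mt-Cytb levels of OligNBL, O and NB thus rest in part on these few cells. Levels of these genes without them are not given here.

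**Figure D1:**
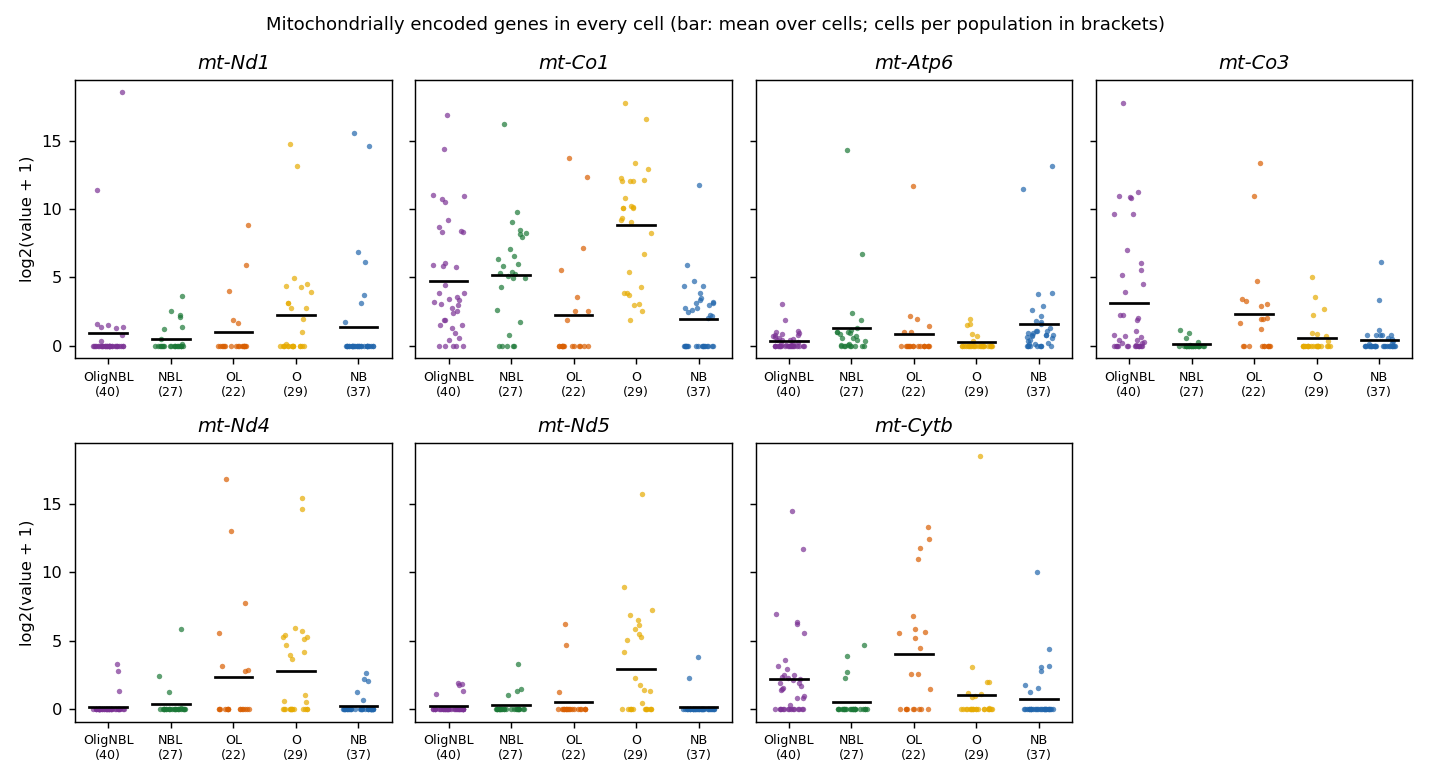
Each point is 1 cell and each panel 1 mitochondrially encoded gene; the y axis is log2(value + 1) and the bar is the mean over the cells of a population, whose number is in brackets. The bar for mt-Co1 is highest in O (8.86), that for mt-Cytb in OL (4.03) and that for mt-Co3 in OligNBL (3.16), and most other genes sit at 0 in most cells.

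Together the mitochondrially encoded genes made up a mean of 0.384% of the summed value in OligNBL, 0.0716% in NBL, 0.163% in OL, 0.611% in O and 0.0479% in NB. These means rest on few cells, since the medians were 0.00130%, 0.000803%, 0.00283%, 0.0210% and 0.000163% in the same order. The highest cell, an O cell, held 7.95%, nearly all of it mt-Cytb, and the highest OligNBL cell held 7.47%, nearly all of it mt-Nd1. Without the cells numbered 21 or lower, the means were 0.218% in OligNBL, 0.362% in O and 0.0101% in NB. In cells with 1000 or more detected genes they were 0.403% in OligNBL, 0.0874% in NBL, 0.0288% in OL (9 cells), 0.439% in O and 0.0610% in NB, which put OL lowest. Cells held a median of 3 of the 7 genes in OligNBL, 2 in NBL, 2.5 in OL, 3 in O and 2 in NB. None of the 7 was detected in 3 NBL and 5 NB cells, and in no cell of the other populations. The share of mitochondrially encoded RNA is also read as a sign of RNA quality, and on this rank-like scale it cannot be compared with a share of reads.

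Nuclear complex I genes peaked in all 5 populations. Ndufa3, a small accessory membrane subunit (chromosome 7, 3617373 to 3620327), marked the OL and O cells: it was present in 12.5% of OligNBL, 0% of NBL, 81.8% of OL, 93.1% of O and 2.86% of NB cells. Its median log2 value was 5.17 in OL and 6.64 in O and 0.00 in OligNBL, NBL and NB. It was detected in all 22 OL cells, the lowest at 1.47, and in 28 of 29 O cells. Detection was not confined to them: over all cells it was detected in 55.5%, which takes in cells outside OL and O. Ndufs4, an accessory subunit beside the electron entry site (chromosome 13, 114287795 to 114388258), was found in all 29 O cells, with a lowest value of 1.33, a median of 5.07 and a highest of 17.8. It was detected in 14 of 40 OligNBL, 2 of 27 NBL, 6 of 22 OL and 3 of 37 NB cells. Its O block means ran from 3.03 to 11.8, and 52.3% of its variance between O cells lay between blocks, the highest share of any member there.

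Ndufv2, which carries an iron-sulphur cluster of the electron entry site (chromosome 17, 66078638 to 66101559), was nearly confined to NBL among the cells measured. In NBL it was detected in 23 of 27 cells with a median of 5.20 and a highest of 17.8. The other counts were 4 of 40 OligNBL, 1 of 22 OL, 0 of 29 O and 2 of 37 NB cells, and the highest value in any of those cells was 2.59. Its levels were 0.11 in OligNBL, 6.83 in NBL, 0.12 in OL, 0.00 in O and 0.061 in NB, and the NBL block means ran from 1.26 to 10.6. Ndufb11, a membrane arm subunit, was highest in NBL too (1.60, 5.03, 0.070, 0.57 and 0.00023 in OligNBL, NBL, OL, O and NB), as was Ndufc1 (1.67, 3.82, 2.33, 0.91 and 1.36). Ndufb11 lies on chromosome X, and the labels give no sex.

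Accessory subunits highest in O included Ndufs6, at 0.027 in OligNBL, 0.43 in NBL, 2.10 in OL, 4.18 in O and 1.31 in NB, and Ndufa2, at 0.33, 0.75, 0.80, 4.36 and 1.32. Ndufa7 (1.27, 0.58, 3.19, 4.97 and 0.89) and Ndufb5 (2.26, 0.019, 0.93, 3.69 and 0.12) also peaked there. Ndufv3 was about as high in OL (4.36) as in O (4.03), with 1.40 in OligNBL, 0.30 in NBL and 1.66 in NB. Ndufb7 split OL from O, since 13 of 22 OL cells but 0 of 29 O cells held it, beside 2 of 40 OligNBL, 3 of 27 NBL and 16 of 37 NB cells. OligNBL had the highest level of Ndufa5 (4.08, 0.94, 0.12, 0.041 and 1.30 in OligNBL, NBL, OL, O and NB) and of Ndufa11, which was detected in 31 of 40 OligNBL, 1 of 27 NBL, 2 of 22 OL, 0 of 29 O and 0 of 37 NB cells. Core subunits were spread likewise: Ndufs1 and Ndufs3 were highest in O, Ndufs8 in OL, Ndufs7 in NB and Ndufv2 in NBL. Ndufs8 was listed at 0 in all 40 OligNBL cells, and Ndufs3 was detected in 0 of 37 NB cells.

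The assembly factors, which help to build complex I and are not part of it, differed as widely. Ndufaf3 was detected in 19 of 29 O, 5 of 22 OL and 1 of 37 NB cells and in no OligNBL or NBL cell. Ndufaf4 was detected in 21 of 40 OligNBL, 4 of 27 NBL, 0 of 22 OL, 1 of 29 O and 1 of 37 NB cells. Ndufaf7 had levels of 0.58 in OligNBL, 2.88 in NBL, 0.92 in OL, 2.95 in O and 0.29 in NB.

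In complex II, Sdha, the flavoprotein that oxidizes succinate (chromosome 13, 74322254 to 74350280), was an OligNBL gene. It was detected in 29 of 40 OligNBL, 4 of 27 NBL, 1 of 22 OL, 4 of 29 O and 1 of 37 NB cells, with levels of 3.60, 0.63, 0.057, 0.23 and 0.011 in that order. OligNBL cells had a median of 2.07 and a highest of 18.5, and their block means ran from 0.21 to 8.98, so the level differed greatly between blocks. Its iron-sulphur partner Sdhb was at 1.85 in OligNBL, 3.01 in NBL, 2.78 in OL, 0.49 in O and 0.14 in NB. Both were detected in the same cell in 17 of 40 OligNBL, 3 of 27 NBL, 1 of 22 OL, 0 of 29 O and 0 of 37 NB cells. In 35 of 37 NB cells neither was detected.

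Complex III was represented by a pair of small nuclear subunits, both highest in OL, where O was about as high for Uqcrq. Uqcr11 had levels of 0.036 in OligNBL, 0.35 in NBL, 3.73 in OL, 1.65 in O and 1.14 in NB. Uqcrq had 0.076, 0.28, 3.12, 3.07 and 0.00023 in the same order. Each was detected in 2 of 40 OligNBL cells.

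In complex IV, Cox7c was detected in every OL cell (22 of 22, lowest 2.07, median 4.27, highest 15.5), and in 24 of 40 OligNBL, 9 of 27 NBL, 17 of 29 O and 18 of 37 NB cells. Its levels were 1.69 in OligNBL, 0.67 in NBL, 5.73 in OL, 3.47 in O and 1.64 in NB. Cox5b had its highest levels in the healthy populations, at 0.021 in OligNBL, 0.55 in NBL, 0.22 in OL, 2.67 in O and 3.16 in NB. Its block means ran from 0.20 to 5.54 in O and from 1.14 to 5.00 in NB. They overlapped those of OL and NBL. Cox4i1, the largest nuclear subunit, was at 2.22 in OligNBL, 0.95 in NBL, 0.80 in OL, 0.20 in O and 1.95 in NB. Cox7a2 was detected in 18 of 40 OligNBL, 11 of 27 NBL, 4 of 22 OL, 0 of 29 O and 14 of 37 NB cells.

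ATP synthase genes stood out in OligNBL by how many were seen in a cell. The 4 measured genes of the catalytic F1 part were Atp5a1 and Atp5b, which form the catalytic ring, and Atp5c1 and Atp5d of the rotating stalk. All 4 were detected together in 7 of 40 OligNBL cells and in no cell of the other populations, and at least 3 in 26 of 40 OligNBL, 10 of 27 NBL, 0 of 22 OL, 4 of 29 O and 1 of 37 NB cells. Atp5c1 had levels of 4.54 in OligNBL, 0.81 in NBL, 0.16 in OL, 0.090 in O and 1.46 in NB, but OligNBL block means ran from 0.083 to 7.90. Atp5d was detected in 34 of 40 OligNBL, 5 of 27 NBL, 0 of 22 OL, 6 of 29 O and 1 of 37 NB cells. Atp5a1 was highest in NBL, with levels of 3.38 in OligNBL, 5.25 in NBL, 0.40 in OL, 0.94 in O and 0.38 in NB. In 1 OligNBL cell Atp5a1 was the highest gene of all and made up 23.1% of the summed value. That share is set by its rank, because the 8 highest values are equal in all cells. Atp5b differed least, with levels between 1.42 and 2.04.

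The Fo part and the peripheral stalk had other orders. Atp5f1, of the stalk that holds the F1 part still (chromosome 3, 105942698 to 105960099), was detected in 37 of 40 OligNBL, 4 of 27 NBL, 19 of 22 OL, 21 of 29 O and 2 of 37 NB cells. Its levels were 5.20 in OligNBL, 0.28 in NBL, 7.31 in OL, 4.63 in O and 0.25 in NB, so NBL and NB lay far below the 3 populations gated on Tomato. Atp5o, the stalk subunit that confers oligomycin sensitivity, was at 4.42 in OligNBL, 0.27 in NBL, 4.85 in OL, 0.29 in O and 0.026 in NB. Atp5l was at 1.43, 1.43, 5.42, 1.88 and 0.73 in the same order. Atp5g1, a gene for the ring through which protons pass, was at 2.02 in OligNBL, 1.19 in NBL, 4.71 in OL, 1.62 in O and 5.43 in NB. Several of these small subunits have near-identical processed copies elsewhere in the genome, so their values are uncertain where reads could be split.

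Over the 50 nuclear members, the highest level was in OligNBL for 12, in NBL for 6, in OL for 14, in O for 12 and in NB for 6. Over all genes the shares were 26.8% in OligNBL, 17.3% in NBL, 16.7% in OL, 19.7% in O and 19.5% in NB. Presence differed by at least 50 percentage points between some pair of populations for 15 members: Ndufa3, Ndufs4, mt-Co1, Ndufs6, Atp5f1, Atp5l, Atp5a1, Cox7c, Ndufa2, Atp5c1, Ndufv2, Atp5o, Ndufb5, Ndufv3 and Ndufb7. These were 26.3% of the 57 members, against a background of 14.9% over all genes.

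**Figure D2:**
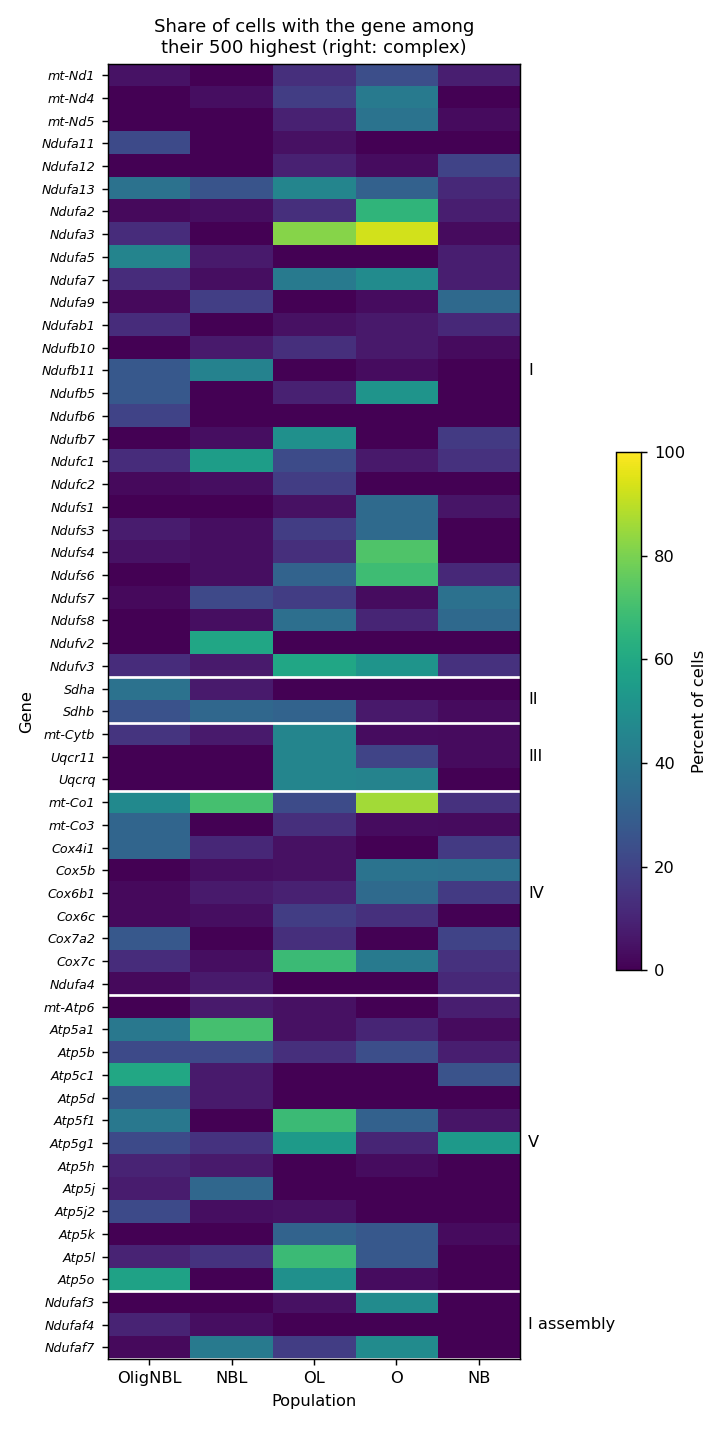
Colour gives the share of cells, in percent, with a gene among their 500 highest, for each of the 57 members (rows, ordered by complex) in each population (columns). Ndufa3 is bright in OL (81.8%) and O (93.1%), Ndufv2 in NBL alone (59.3%), and rows of the same complex are bright in different columns.

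In OligNBL against NBL, the double positive and the Gad67-GFP cells of lesioned mice, Atp5f1, Atp5o and Sdha were among the members higher in OligNBL, and Ndufv2 and Ndufb11 among those lower. Calls went both ways in complex I (5 of 24 nuclear subunits higher, 6 lower) and in ATP synthase (5 of 12 higher, 2 lower). Of the nuclear members 14 were higher and 11 lower, 28% and 22%, against backgrounds of 25.7% and 20.3% of all genes. Leading on the higher side were Atp5f1 (difference of levels 4.92), Atp5o (4.15), Atp5c1 (3.72), Ndufa5 (3.15) and Sdha (2.97). On the lower side were Ndufv2 (-6.72), Ndufb11 (-3.43), Ndufaf7 (-2.30), Ndufc1 (-2.14) and Atp5a1 (-1.88). The median difference was 0.0016 for the nuclear members, -0.069 for the 7 mitochondrial genes and 0.035 for all genes, so the members moved in both directions about zero. Among the mitochondrial genes mt-Co3 (3.05) and mt-Cytb (1.69) were higher. Block means did not overlap for 5 nuclear members on the higher side (Atp5d, Atp5f1, Atp5o, Ndufa11 and Ndufb5; background 10.5%) and 3 on the lower side (Ndufaf7, Ndufs7 and Ndufv2; background 5.35%). With any 1 block left out, 11 of the 16 higher and 7 of the 11 lower calls over all 57 members were kept.

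OligNBL against OL set the double positive cells beside the Tomato cells of lesioned mice. More nuclear members were lower than higher in OligNBL, while 3 of the 4 F1 genes were on the higher side. The counts were 13 higher and 19 lower, 26% and 38%, against backgrounds of 27.3% and 21.1%. Higher were Atp5c1 (4.37), Ndufa5 (3.96), Sdha (3.54), Atp5d (3.09) and Atp5a1 (2.97), and lower were Ndufa3 (-5.52), Cox7c (-4.05), Atp5l (-3.99), Uqcr11 (-3.69) and Ndufb7 (-3.08). The median difference was -0.42 for nuclear members and 0.13 for all genes, and -0.78 for the 24 nuclear subunits of complex I. Of the mitochondrial genes, whose median was -0.36, mt-Co1 was higher (2.52) and mt-Nd4 (-2.18) and mt-Cytb (-1.84) were lower; the last 2 calls were lost with 1 block left out, at -0.64 and 0.61. Block means lay apart for 7 nuclear members on the higher side (background 13.6%) and 9 on the lower side (background 9.15%), among them Sdha and Ndufa5, and Ndufa3 and Cox7c. With any 1 block left out, 9 of 14 higher and 11 of 21 lower calls over all members were kept.

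NBL against NB, the Gad67-GFP cells of lesioned and of healthy mice, are of the same strain and gate, but their cell numbers do not overlap. A few genes differed by much while most did not: 8 nuclear members were higher and 6 lower in NBL, 16% and 12%, against backgrounds of 17.4% and 17.3%. Higher were Ndufv2 (6.77), Ndufb11 (5.03), Atp5a1 (4.87), Sdhb (2.87) and Ndufaf7 (2.59), with 8 of the 9 higher calls over all members kept on leaving out any block, and 4 of the 6 lower calls. The lower members were led by Atp5g1 (-4.25), Cox5b (-2.61), Ndufb7 (-1.62), Ndufa12 (-1.60) and Ndufv3 (-1.36), the last of which came to -0.86 with 1 block left out. The lower count moved with the cells used. It was 15 when NBL and NB cells with fewer than 1000 detected genes were dropped. Without the NB cells numbered 21 or lower it was 11, and with blocks weighted equally it was 11. The share of all genes under these settings is not given here. Of the mitochondrial genes mt-Co1 was higher (3.26), and the median of the 7 was -0.25. The nuclear median was -0.024 and that of all genes -0.0036. Block means lay apart for Atp5a1, Atp5o, Ndufaf7 and Ndufv2 on the higher side (background 5.73%) and for Atp5g1 and Ndufb7 on the lower side (background 3.39%).

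In OL against O, the Tomato cells of lesioned and of healthy mice, the largest difference of any member was at mt-Co1, which was 6.62 lower in OL. There were 14 nuclear members higher and 10 lower, 28% and 20%, against backgrounds of 15.9% and 15.7%. The lower share was thus near that of all genes. Of the 12 nuclear ATP synthase genes 4 were higher, Atp5o (4.56), Atp5l (3.53), Atp5g1 (3.09) and Atp5f1 (2.68), and none was lower by 1. Of the 24 nuclear complex I subunits 7 were higher, led by Ndufb7 (3.17), and 6 lower. Leading on the lower side were Ndufs4 (-5.29), Ndufa2 (-3.57), Ndufaf3 (-2.80) and Ndufb5 (-2.75), and Cox5b (-2.45). Only 6 of the 16 higher calls over all members were kept when any block was left out, and 10 of 13 lower calls; Atp5f1 ran from 0.32 to 5.36. Block means lay apart for Atp5g1, Atp5l, Atp5o, Ndufb7 and Sdhb on the higher side (background 4.62%). On the lower side they lay apart for Atp5d and Ndufs1 (background 8.91%). With the cells numbered 21 or lower as a block of their own, none was left on the lower side (background 4.47%). Among mitochondrial genes mt-Nd5 (-2.36) and mt-Nd1 (-1.22) were also lower, and mt-Cytb (3.01) and mt-Co3 (1.73) were higher, but leaving out 1 block ended the calls for mt-Nd1 (-0.62), mt-Cytb (0.55) and mt-Co3 (0.26). Medians were -0.44 for the mitochondrial, 0.066 for the nuclear and -0.099 for all genes. Among oligodendrocyte markers, presence in OL and O was 100% and 24.1% for Mbp, 86.4% and 96.6% for Cnp, and 100% in both for Trf. The part of such markers in these differences was not tested.

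In O against NB, the 2 healthy populations, mt-Co1 was higher in O. The nuclear complex I subunits went both ways, 14 above 0 and 10 below, with a median difference of 0.32. Of the nuclear members 17 were higher and 10 lower, 34% and 20%, against backgrounds of 19.4% and 20.7%, and the nuclear median was 0.35 against 0.094 for all genes. Higher were Ndufs4 (7.01), Ndufa3 (6.45), Atp5f1 (4.37), Ndufa7 (4.08) and Ndufaf3 (3.68); 10 of the 24 nuclear complex I subunits were higher and 5 lower. Lower were Atp5g1 (-3.81), Ndufa9 (-2.12), Ndufb7 (-1.91), Cox4i1 (-1.75) and Cox7a2 (-1.60), the last of these not kept on leaving out a block. The mitochondrial median was 0.83, with mt-Co1 (6.92), mt-Nd5 (2.75) and mt-Nd4 (2.57) higher and mt-Atp6 (-1.32) lower. Block means lay apart for 10 nuclear members on the higher side (background 12.7%), Ndufs4, Ndufa3 and Atp5f1 among them, and for 4 on the lower side (background 9.59%). With the cells numbered 21 or lower as a block of their own, 3 lay apart on the higher side (Atp5f1, Ndufs3 and Ndufs4, background 5.76%). On the lower side 1 did (Ndufb7, background 4.68%). Of the calls over all members, 16 of 20 higher and 7 of 11 lower were kept on leaving out any block.

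The 5 comparisons share populations with each other, so their values for a gene are not independent.

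**Figure D3:**
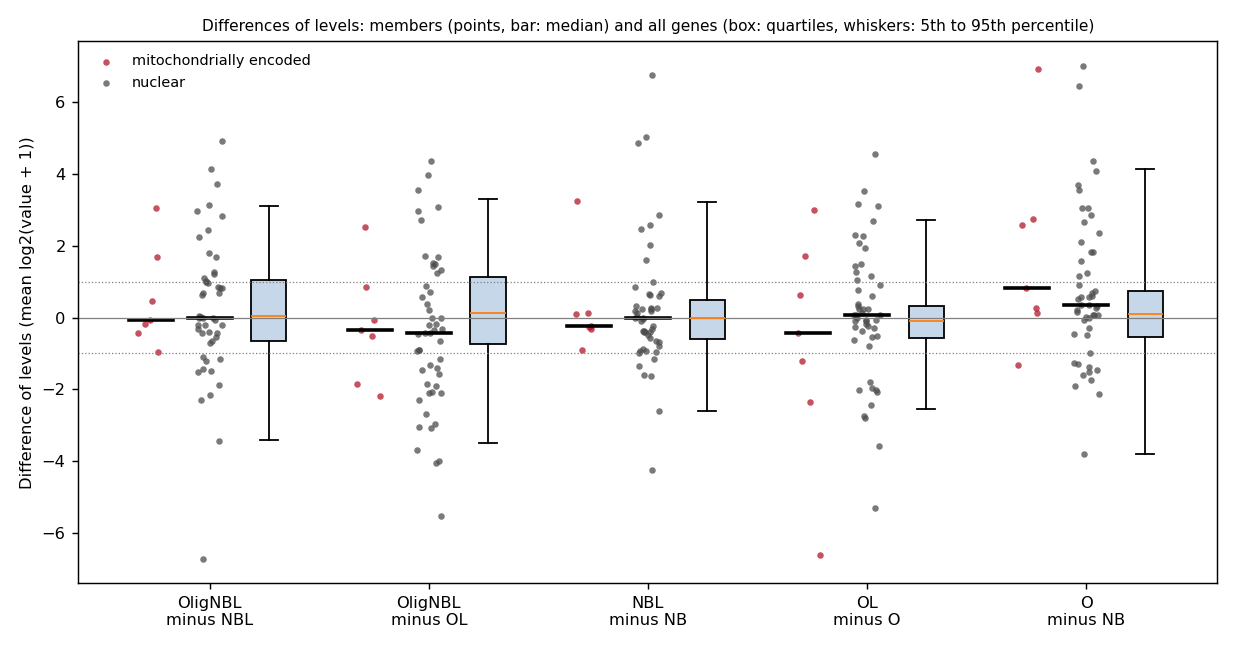
Points are the differences of levels (y axis, in units of mean log2(value + 1)) of the 7 mitochondrially encoded and 50 nuclear members in each comparison, with bars at their medians; boxes show the quartiles and whiskers the 5th to 95th percentile of all 3422 genes, and dotted lines mark a difference of 1. Members spread over a range like that of all genes in both directions, and the medians of the members lie between -0.44 and 0.35, except that of the mitochondrial genes in O against NB (0.83).

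Counts of detected members per cell were set beside those of all genes. Because depth is unknown, this cannot fully separate a general difference in detection from one at these genes. A median of 20.5 of the 50 nuclear members was detected in OligNBL cells, 16 in NBL, 17 in OL, 19 in O and 12 in NB, that is 41%, 32%, 34%, 38% and 24%. All genes of the table were detected at medians of 40.8%, 33.9%, 27.8%, 34.7% and 32.6%. The members' share exceeded that of all genes in 19 of 40 OligNBL, 9 of 27 NBL, 18 of 22 OL, 19 of 29 O and 13 of 37 NB cells. The high count in OligNBL thus came with a high count of all genes, while OL cells had few genes but relatively many members.

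By complex, the count of ATP synthase genes was highest in OligNBL: a median of 8 of the 12 was detected there, against 4 in NBL, 4.5 in OL, 4 in O and 2 in NB. In 37 of 40 OligNBL cells their share exceeded that of all genes, as it did in 12 of 27 NBL, 19 of 22 OL, 12 of 29 O and 9 of 37 NB cells. The 24 nuclear subunits of complex I were at medians of 9 in OligNBL, 7 in NBL, 8.5 in OL, 9 in O and 6 in NB, and exceeded the share of all genes in 12 of 40, 6 of 27, 17 of 22, 21 of 29 and 16 of 37 cells in that order. Complex IV was at a median of 2 of 7 genes in OligNBL, 3 in NBL, 2 in OL, 2 in O and 2 in NB.

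**Figure D4:**
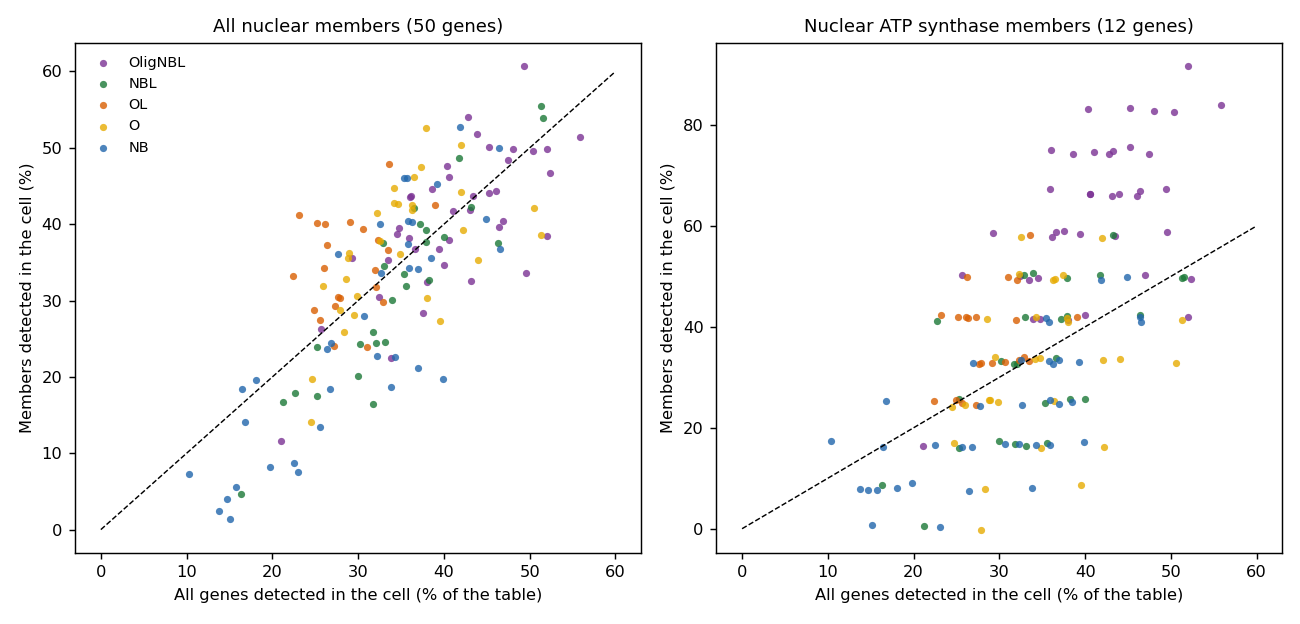
Each point is 1 cell; the x axis is the percent of all 3422 genes detected and the y axis the percent of the 50 nuclear members (left) or the 12 nuclear ATP synthase members (right), moved slightly at random so that points do not hide each other, and the dashed line marks equal shares. In the right panel 37 of 40 OligNBL and 19 of 22 OL cells lie above the line, against 12 of 27 NBL, 12 of 29 O and 9 of 37 NB cells.

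Counts from the 2 genomes were not tied to each other in most populations. Across cells, the Spearman correlation of the number of mitochondrial and of nuclear members detected was -0.19 in OligNBL (n = 40 cells), 0.20 in NBL (n = 27), 0.012 in OL (n = 22), 0.11 in O (n = 29) and 0.63 in NB (n = 37). Within a cell both counts share the library and the number of genes detected, with which the nuclear count had correlations of 0.64, 0.89, 0.18, 0.58 and 0.81 in the same order, and the mitochondrial count 0.15, 0.18, 0.041, 0.14 and 0.61. NB, where both counts followed the number of genes, was also the population with the highest value between them.

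Block means of several leading genes, such as Sdha and Atp5c1 in OligNBL, lay further apart than the levels of the populations did. The share of a gene's variance between cells that lay between blocks had a median over the members between 10.4% (NBL) and 18.6% (OligNBL), against 10.3% (O) to 14.8% (OligNBL) over all genes. Blocks drawn at random would give a mean of 9.52% (OL) to 11.5% (NBL). The highest members were Ndufb6 in OligNBL (56.7%), Atp5j in NBL (54.3%), mt-Cytb in OL (57.1%), Ndufs4 in O (52.3%) and Ndufaf7 in NB (44.9%).

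**Figure D5:**
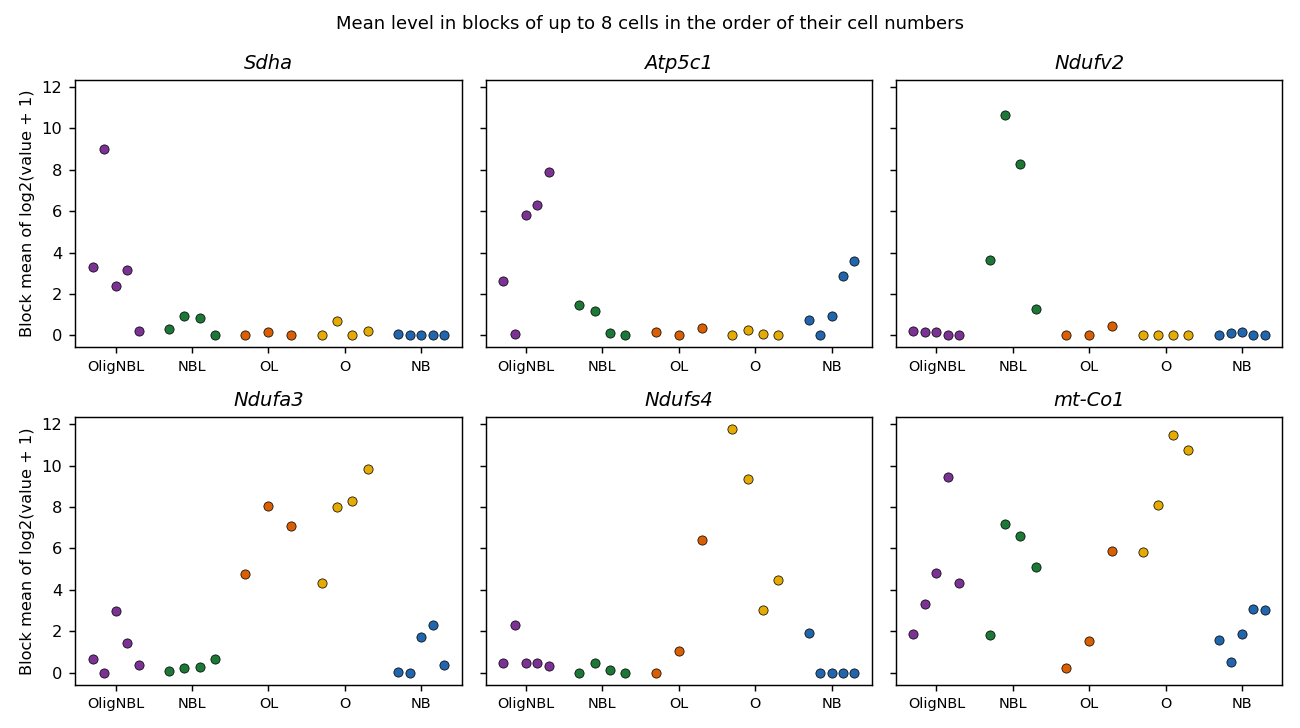
Each point is the mean of log2(value + 1), y axis, over a block of up to 8 cells taken in the order of their cell numbers, shown for 6 members in the 5 populations. Ndufa3 blocks of OL and O, as drawn, all lie above those of the other populations, although the 2 O cells numbered 21 or lower, part of the first O block, averaged 1.35; by contrast 1 OligNBL block stands far above the others for Sdha (8.98) and Ndufv2 is high in some NBL blocks (10.6) and low in another (1.26).

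Promoter windows were read for factors known to act on respiratory chain genes, namely NRF1, GABPA and YY1. Windows of 250 bases before to 50 bases after the start (RefSeq, GRCm38.p6) were at hand for 44 of the 50 nuclear members. Atp5a1, Cox4i1, Cox6c, Ndufa2, Ndufs1 and Uqcrq were not matched. Only the first window of a gene was read, although Atp5c1, Atp5d, Atp5j, Ndufa5 and Ndufa7 had 2. The NRF1 letters GCGCANGCG, sought on both strands, were in the windows of 11 members (25%), against 16.2% of the 2497 genes of the table with a window and 6.47% of all 27025 windows. The GABPA letters CCGGAAG were in 10 members (22.7%, against 19.9% and 9.12%), and the YY1 letters AAGATGGCG in 6 (13.6%, against 4.13% and 1.5%), both sought in the same way. Atp5h, Atp5k, Atp5l and Uqcr11 held both NRF1 and GABPA letters, and Ndufs6 both NRF1 and YY1 letters.

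Of the 11 members with the NRF1 letters, Sdha, Ndufa5, Ndufa11, Ndufaf4 and Atp5h were highest in OligNBL, Atp5k, Atp5l, Atp5o, Ndufb10 and Uqcr11 in OL and Ndufs6 in O; of the 33 without, 6 were highest in OligNBL and 7 in OL. Over the genes of the table with a window, 26.98% of those with the letters were highest in OligNBL, against 27.15% of all. For OL these shares were 17.57% and 16.62%. Stretches of 100 bases around a match are shown for 4 of the OligNBL genes and for Atp5l of OL, because these genes share the letters while their levels peak in different populations; they were chosen after their values were seen. Capitals mark the NRF1 letters, which can overlap on the 2 strands, and all are written 5′ to 3′ on the gene's strand.
Sdha (chr13:74350284-74350383, minus strand): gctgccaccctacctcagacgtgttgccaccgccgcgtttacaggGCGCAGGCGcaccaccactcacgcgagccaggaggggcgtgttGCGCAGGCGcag
Ndufa11 (chr17:56717657-56717756, plus strand): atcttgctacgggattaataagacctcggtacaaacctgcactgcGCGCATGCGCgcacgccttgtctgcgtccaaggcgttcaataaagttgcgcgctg
Ndufaf4 (chr4:24897925-24898024, plus strand): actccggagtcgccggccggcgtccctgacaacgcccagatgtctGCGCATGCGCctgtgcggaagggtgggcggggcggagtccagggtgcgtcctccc
Atp5h (chr11:115420006-115420105, minus strand): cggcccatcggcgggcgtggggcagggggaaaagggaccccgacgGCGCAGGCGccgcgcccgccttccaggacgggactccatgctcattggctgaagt
Atp5l (chr9:44920893-44920992, minus strand): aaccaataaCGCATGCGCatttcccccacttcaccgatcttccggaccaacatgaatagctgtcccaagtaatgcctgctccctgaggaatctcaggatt
Each stretch lies before its gene as GENCODE places it. A match is a string of letters and not a bound site.

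Other mitochondrial genes and glycolysis were read from fixed lists. For each list the number of genes called higher and lower is given for OligNBL against NBL, OligNBL against OL, NBL against NB, OL against O and O against NB, in that order. Over all genes the shares higher and lower were 25.7% and 20.3%, 27.3% and 21.1%, 17.4% and 17.3%, 15.9% and 15.7%, and 19.4% and 20.7%. Most lists are too short for a share to be read against these.

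Of 20 genes of the tricarboxylic acid cycle 5 were measured, with 1 and 0, 0 and 3, 1 and 1, 3 and 0, and 1 and 1 called. Mdh2, malate dehydrogenase, was at 3.10 in OligNBL, 2.14 in NBL, 4.83 in OL, 1.00 in O and 0.058 in NB, and Sucla2 was at 0.13, 0.49, 4.69, 1.51 and 0.072. Of 10 carriers 6 were measured, with 2 and 1, 1 and 4, 1 and 1, 4 and 0, and 1 and 1 called. Cycs, cytochrome c itself, was at 0.26 in OligNBL, 0.11 in NBL, 2.95 in OL, 0.18 in O and 0.89 in NB. Of 34 further assembly genes 6 were measured, with 3 and 2, 3 and 1, 1 and 1, 0 and 2, and 2 and 1 called. Higd1a, a factor of complex IV assembly and the hypoxia response, was at 1.68, 8.59, 0.69, 2.41 and 8.77, so that it was high in NBL and NB.

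Of 27 genes of the mitochondrial ribosome, which translates the mitochondrial genes, 8 and 5, 6 and 3, 4 and 7, 5 and 2, and 2 and 8 were called, and the medians lay between -0.020 and 0.066. Mrpl11 was at 6.72 in NBL and at 0.85 or lower in the other populations. Of 29 genes of mitochondrial gene expression 4 were measured, with 0 and 1, 0 and 4, 0 and 2, 2 and 0, and 0 and 2 called. Polg2, an accessory subunit of the mitochondrial DNA polymerase, was highest in NB (6.37). Of 11 import genes 2 and 1, 4 and 2, 2 and 3, 2 and 2, and 1 and 3 were called, and Timm50 was highest in NB (4.26). Of 23 genes of dynamics and turnover 7 were measured, with 3 and 2, 3 and 1, 1 and 1, 1 and 1, and 2 and 2 called. Among them Phb, the inner membrane scaffold prohibitin, was at 3.22 in OligNBL, 0.29 in NBL, 2.36 in OL, 8.09 in O and 0.28 in NB, and Bnip3l, a receptor for the removal of mitochondria, at 1.05, 0.21, 6.68, 5.17 and 0.072. Of 17 glycolysis genes 7 were measured, with 4 and 1, 4 and 2, 2 and 1, 2 and 1, and 1 and 1 called. Eno1 was at 4.50 in OligNBL and 0.15 in OL, Aldoa at 0.12 in OligNBL and 4.48 in OL, and Gapdh at 8.01 in NB and at 3.69 or lower elsewhere.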

How the data were processed

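The authors' processing used kallisto and limma with genome build GRCm38, per the submitters' processing notes; their versions, and how the genes of the table were chosen, are not given here by any source. The deposited values are named estimated counts but behave as a normalized signal: cell totals run from 5155899 to 5161091, and the 8 highest values are equal in all cells. Depth is therefore unknown, and no count test was used. One cell is 1 sample and no mouse is named, so each population is 1 sample, with no p-value.

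Levels are means of log2(value + 1) with a pseudocount of 1 and no filter; all cells were kept, and doublets were not called. In 1 NB cell no value is 0, so detection was counted above each cell's lowest value. Named genes were every mitochondrial member, the 5 largest and 5 smallest nuclear differences per comparison, members whose presence differed by 50 points, and up to 3 genes per other list; further members were named after their values were seen. The members and the lists (tricarboxylic acid cycle, carriers, assembly, mitochondrial ribosome, gene expression, import, dynamics and turnover, glycolysis, and cell type markers) were chosen with earlier results of these data known. Intervals are Clopper-Pearson at 95%; they cover counting error only, and cells of the same mouse are not independent. Positions are from GENCODE vM21 and promoters from RefSeq, matched by symbol. As a check of arithmetic only, a known shift was added to shuffled values of these data and a difference of means was taken. This does not test the calls or the blocks. Alternatives changed the pseudocount, the cells, the weighting of blocks, the gene filter and the definition of presence. The software was scipy 1.17.1, numpy 2.4.6, pandas 2.3.3 and, for plots, matplotlib 3.10.9 under Python 3.11.15.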

Additional observations from a re-analysis of the deposited data

How the results depend on the processing

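Counts of nuclear members past a difference of 1 moved by more than 1.5 times in some cases. With a pseudocount of 10 instead of 1, OligNBL against NBL gave 8 higher and 6 lower, OligNBL against OL 7 higher, NBL against NB 2 lower, OL against O 8 higher and O against NB 2 lower. In NBL against NB the lower count, 6 with all cells, was 15 when cells with fewer than 1000 detected genes were dropped, 11 without cells numbered 21 or lower and 11 with blocks weighted equally. Presence differed by at least 50 points for 30 members when it was a detected value and for 3 when it was the 250 highest genes, against 15 for the 500 highest. The shares of all genes that passed under these other settings are not given here, so these counts have no background. Whether the shifts are particular to the members was not tested, nor was their cause. The nuclear median stayed negative in OligNBL against OL (-0.47 to -0.31) and positive in O against NB (0.089 to 0.42), while the nuclear medians of the other 3 comparisons changed sign between settings (from -0.10 to 0.11 over all of them). Mitochondrial medians changed sign in OligNBL against NBL, OligNBL against OL and NBL against NB, and ran from -0.47 to -0.034 in OL against O and from 0.29 to 1.54 in O against NB. Without the NB cell whose values are all above 0, a choice added after seeing the data, lower counts against NB were 8 for NBL and 11 for O. Here too the share of all genes is not given. With the cells numbered 21 or lower as a block of their own, also added after seeing the data, nuclear members with block means apart were counted again. On the higher side they numbered 3 in OligNBL against NBL, 6 in OligNBL against OL, 4 in NBL against NB, 5 in OL against O and 3 in O against NB. Over all genes the shares there were 6.2%, 8.77%, 5.11%, 3.89% and 5.76%. On the lower side they numbered 3, 8, 1, 0 and 1 in the same order, against 3.68%, 7.51%, 1.32%, 4.47% and 4.68% of all genes. The numbers of calls kept without any block did not change. No paired analysis was possible because no comparison has a test and the labels tie no cell of a population to a cell of another. Depth cannot be read from these values, so a gene listed at 0 may have been missed.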
